A study of Mus musculus with 12 samples.

Results

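The immunoproteasome and the loading of peptides onto MHC class I were followed through 10 genes across 4 antibody treatments: Psmb8, Psmb9, Psmb10, Psme1, Psme2, Tap1, Tap2, Tapbp, B2m and Nlrc5. They were taken by name, with earlier results of these data known. The count table holds 56691 mouse genes, of which 15138 had enough reads to be tested, and all 10 members were among these. Of the 10, 1 gene, Tap2, passed the test between combination blockade and isotype, where it was lower, and this call was lost when single libraries were left out. No member passed the test in any other comparison.

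The samples were splenic CD4+ T cells of Tg4 Nr4a3-Tocky IL-10 GFP mice, whose transgenic T cell receptor recognises a myelin basic protein peptide and whose Timer protein follows transcription of Nr4a3. Every mouse was given 4 mg/kg of [4Y]-MBP peptide under the skin, an antibody treatment 24 h later, and 0.4 mg/kg of the same peptide 30 min after that. The 4 groups of 3 mice received an isotype pool of rat IgG1 and rat IgG2a, anti-PD-L1, anti-Lag3, or both blocking antibodies, called CB. Spleens were taken 12 h after the second peptide, and cells positive for both Blue and Red Timer were sorted, so all groups were read in cells whose reporter was already on and no unstimulated cells served as a baseline.

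Proteasomes cut cytosolic proteins into peptides. In immune cells, and in most cells after interferon-gamma, the catalytic subunits Psmb8, Psmb9 and Psmb10 replace the constitutive Psmb5, Psmb6 and Psmb7, and the 11S activator made of Psme1 and Psme2 can cap the particle. The TAP transporter, a dimer of Tap1 and Tap2, carries peptides into the endoplasmic reticulum, where tapasin, the product of Tapbp, joins it to class I molecules, each made of a heavy chain and the light chain B2m. Nlrc5 is the transactivator of class I genes.

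Of the 10, 4 lie together in the class II region of chromosome 17 (GRCm38, GENCODE annotation). Psmb9 is at chr17:34181987-34187764 on the minus strand, and Tap1 (chr17:34187553-34197225), Psmb8 (chr17:34197721-34201454) and Tap2 (chr17:34203527-34216321) follow on the plus strand, within 34335 bases in all. Tapbp lies on the same chromosome at chr17:33915899-33929292. Psme1 (chr14:55578123-55581529) and Psme2 (chr14:55587441-55591113) are also neighbours, while B2m is at chr2:122147686-122153083 and Psmb10 (chr8:105935735-105938444) and Nlrc5 (chr8:94434356-94527272) share chromosome 8.

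RefSeq promoter windows of GRCm38.p6, from 250 bases before to 50 after each gene's start, were at hand for 8 of the 10 members and not for Tap2 and Nlrc5. The windows of Psmb9 and Tap1 share 275 of their 300 bases, because the 2 genes start head to head. RefSeq's starts differ from those of GENCODE given above. By GENCODE the exons of Psmb9 and Tap1 overlap by 212 bases on opposite strands, where reads cannot be told apart if counting did not use strand. The RefSeq starts of Psmb9, Psmb8, Tapbp and Psme1, among others, lie inside their GENCODE genes. The first sequence below is the stretch between the RefSeq starts of Psmb9 and Tap1, chr17:34187331-34187555 on the plus strand, shown because it leads into 1 member on each side. By GENCODE it lies within Psmb9. The other sequences are the 250 bases before the RefSeq starts of B2m (chr2:122147437-122147686, plus strand) and Psmb8 (chr17:34197945-34198194, plus strand), shown because they hold matches to motifs of the interferon and NF-kB pathways. Capitals mark CCAAT in the first, the interferon and the NF-kB motif in that of B2m, and the gamma-activated sequence in that of Psmb8.
Psmb9 to Tap1: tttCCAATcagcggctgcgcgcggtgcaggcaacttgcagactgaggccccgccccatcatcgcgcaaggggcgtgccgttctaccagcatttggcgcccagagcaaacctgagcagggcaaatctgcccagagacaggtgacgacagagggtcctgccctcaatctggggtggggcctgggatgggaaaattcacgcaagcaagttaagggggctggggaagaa
B2m: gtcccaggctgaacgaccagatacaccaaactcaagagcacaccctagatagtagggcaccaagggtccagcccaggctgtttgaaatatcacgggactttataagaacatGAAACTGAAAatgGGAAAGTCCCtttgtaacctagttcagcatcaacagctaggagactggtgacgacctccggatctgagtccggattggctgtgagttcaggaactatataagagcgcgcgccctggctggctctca
Psmb8: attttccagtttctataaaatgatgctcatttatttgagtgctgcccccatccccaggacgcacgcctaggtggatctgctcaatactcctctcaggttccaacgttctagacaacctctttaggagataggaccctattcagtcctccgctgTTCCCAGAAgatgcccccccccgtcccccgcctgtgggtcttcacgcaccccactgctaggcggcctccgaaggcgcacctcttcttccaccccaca

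Each motif was searched on both strands of the 300-base windows, and no 2 matches within a member overlapped. The core of an interferon-stimulated response element (GAAA, any 2 bases, GAAA) was found in 2 of 8 members, B2m and Psme1, and in 3.99% of 27025 genes. In B2m it lay before the RefSeq start. In Psme1 it lay within the 50 bases after the RefSeq start, which is inside the gene by GENCODE. The gamma-activated sequence (TTC, any 3 bases, GAA) was found in Psmb8 and in 9.55% of all genes. An NF-kB motif (GGGA, any 2 bases, TTCC) was found in B2m and in 1.63% of all genes, and CCAAT in 4 members (Psmb9, Tap1, Tapbp and B2m) and in 41.1% of all genes. The match of Psmb9 and that of Tap1 are the same site, in the bases their windows share. These matches describe letters and no binding was measured.

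Reads were counted on genes in 12 libraries made from the 3' ends of transcripts, with totals from 16449370 to 22151025 per mouse. Levels are given as CPM, the read count relative to the TMM-scaled library size, which compares a gene between samples but not 1 gene with another. The 6 T cell markers summed to between 1856 and 2242 CPM, and the 8 myeloid and dendritic markers to between 5.76 and 22.9 CPM. The B cell markers Ms4a1, Cd79a, Cd79b and Pax5 summed to between 0.471 and 17.8 CPM, while Ighm, the IgM heavy chain, had 323 to 412 CPM. Antigen-presenting cells express the members too, and the part of other cells in the members' levels was not tested. In bulk samples, fewer cells of a type and less RNA per cell cannot be told apart.

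**Figure D1:**
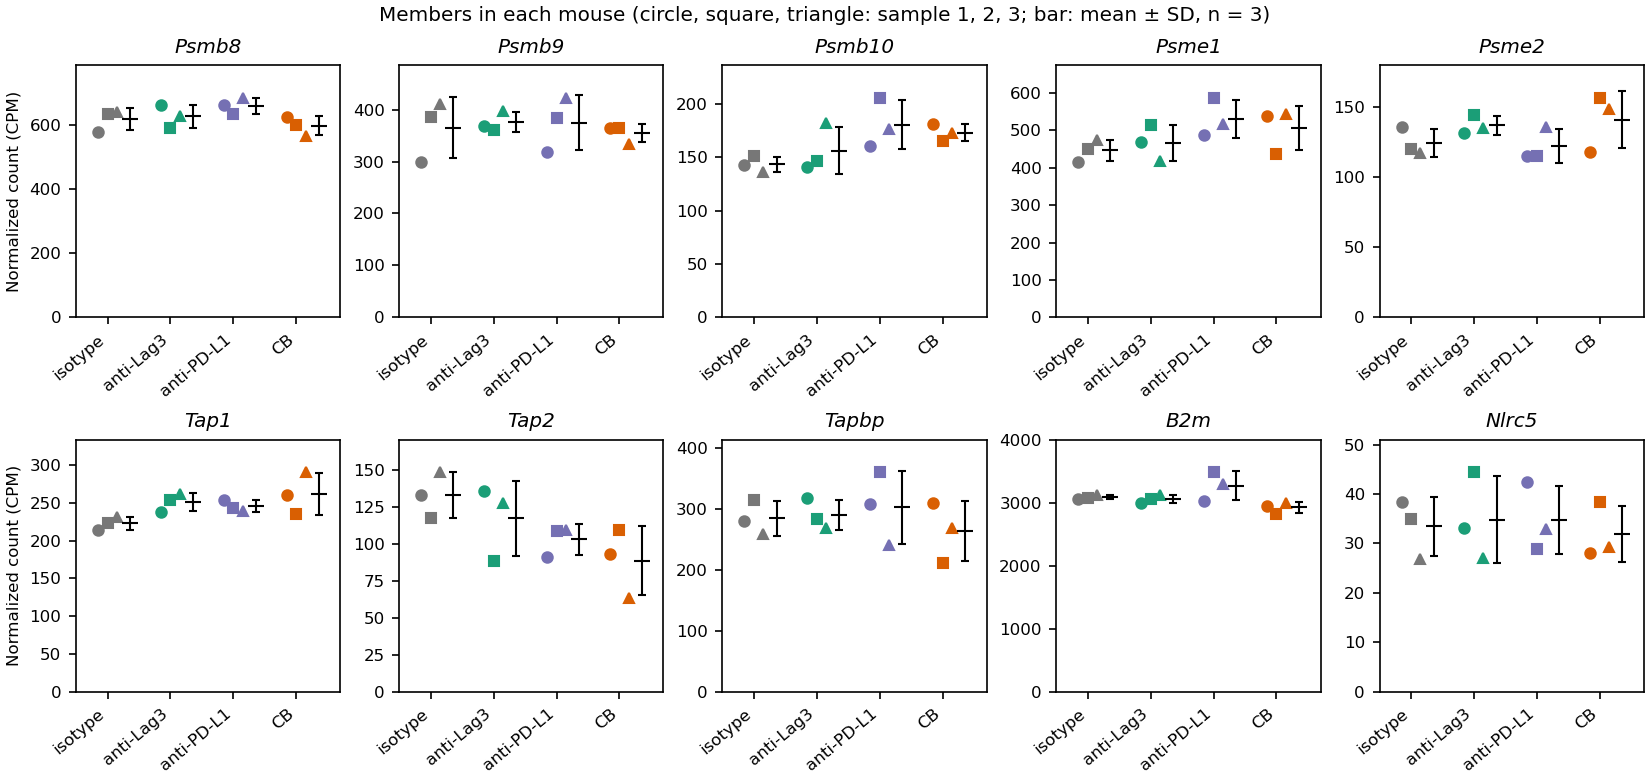
Normalized counts (CPM, each axis starting at 0) of the 10 members in each of the 12 mice, by treatment; points are mice and bars are the mean ± SD of 3. Tap2 is lower in all 3 CB mice than in any isotype mouse, while Psmb9, Tapbp and Nlrc5 overlap between all groups.

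The inducible catalytic subunits showed no change that passed the test. Psmb8, which provides the chymotrypsin-like activity of the immunoproteasome, had 578, 633 and 640 CPM in the isotype mice, 660, 588 and 629 with anti-Lag3, 661, 634 and 683 with anti-PD-L1, and 625, 600 and 566 with CB. The groups overlapped, apart from anti-PD-L1 and CB, where all 3 anti-PD-L1 mice were higher. The log2 fold change of Psmb8 in CB against isotype was -0.05 (SE 0.08, 95% interval -0.22 to 0.12, adjusted p = 0.902, edgeR), which spans changes from 14.1% lower to 8.86% higher.

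Psmb9, which takes the place of Psmb6, had 298, 386 and 410 CPM in the isotype mice. It lay at 369, 360 and 397 CPM with anti-Lag3, 318, 384 and 422 with anti-PD-L1, and 364, 365 and 334 with CB. All 4 groups overlapped, and CB differed from isotype by -0.04 on the log2 scale (SE 0.11, adjusted p = 0.957).

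Psmb10, which takes the place of Psmb7, had 143, 151 and 136 CPM in isotype mice and 181, 165 and 172 CPM in CB mice, with no overlap. It lay at 160, 205 and 176 CPM with anti-PD-L1, also above all isotype mice, and at 140, 146 and 182 CPM with anti-Lag3. Neither difference passed the test. The log2 fold change was 0.27 for CB (SE 0.12, adjusted p = 0.277) and 0.33 for anti-PD-L1 (SE 0.12, adjusted p = 0.491), both against the same isotype mice.

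The subunits of the 11S activator did not pass the test either. Psme1 had 416, 449 and 473 CPM in isotype mice, 468, 514 and 418 with anti-Lag3, 487, 586 and 518 with anti-PD-L1, and 539, 438 and 543 with CB. The anti-PD-L1 mice alone were all above the isotype mice, with a log2 fold change of 0.25 (SE 0.10, adjusted p = 0.550). Psme2 had 136, 120 and 118 CPM in isotype mice, 131, 144 and 135 with anti-Lag3, 115, 115 and 136 with anti-PD-L1, and 118, 157 and 149 with CB, and all groups overlapped. In CB against isotype both subunits had a log2 fold change of 0.18 (adjusted p = 0.400 for Psme1 and 0.520 for Psme2). The near-identical copy Psme2b held 395 reads against 30673 for Psme2, and reads shared between the copies cannot be told apart.

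For the TAP transporter, Tap1 had 214, 223 and 232 CPM in isotype mice, 238, 254 and 262 with anti-Lag3, 254, 243 and 240 with anti-PD-L1, and 261, 235 and 291 with CB. Each antibody group lay above all isotype mice, yet no difference passed the test: the log2 fold change was 0.24 for CB (SE 0.10, adjusted p = 0.253), 0.17 for anti-Lag3 (adjusted p = 0.805) and 0.14 for anti-PD-L1 (adjusted p = 0.687).

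Tap2 had 134, 117 and 149 CPM in isotype mice, 136, 88.8 and 128 with anti-Lag3, 91.0, 109 and 109 with anti-PD-L1, and 93.5, 110 and 63.3 with CB. All 3 CB mice and all 3 anti-PD-L1 mice were below every isotype mouse, while the anti-Lag3 mice overlapped with all other groups. Means fell from isotype (133 ± 15.6 CPM, SD, n = 3) through anti-Lag3 (117 ± 25.1) and anti-PD-L1 (103 ± 10.5) to CB (88.8 ± 23.5), and each group overlapped with its neighbour in this order.

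Between CB and isotype Tap2 was 33.4% lower, a log2 fold change of -0.59 (SE 0.17, 95% interval -0.94 to -0.23, adjusted p = 0.0480, edgeR). The adjusted p lay just under the threshold of 0.05, and the call was lost on leaving out any 1 of 6 libraries (isotype 1 or 3, anti-Lag3 3, anti-PD-L1 2, CB 1 or 3), with adjusted p values up to 0.330. Leaving out CB mouse 3 had the largest effect, and then the log2 fold change was -0.39 (adjusted p = 0.330). Fitting only the CB and isotype mice gave a log2 fold change of -0.59 (adjusted p = 0.0569, edgeR), and DESeq2 gave -0.60 (adjusted p = 0.542 when tested against a log2 fold change of 0.2 and 0.0212 when tested against 0). The call was kept in 13 of 21 alternatives.

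Some cell type markers also stood apart between these groups. The 6 T cell markers summed to 1856 to 1899 CPM in CB mice and 2151 to 2241 in isotype mice. Of these 6, 2 were themselves called lower, beside 1.96% of all genes, while Trac had means of 375 CPM in CB and 390 in isotype. The paper lists Cd4 among down-regulated genes of T cell receptor signalling. The 2 CD8 T cell markers, mostly Cd8b1, summed to 25.0 to 33.2 CPM in CB mice, 24.6 to 30.5 with anti-PD-L1, 29.2 to 46.4 with anti-Lag3 and 40.9 to 45.3 in isotype mice. The 3 erythroid markers summed to 112 to 145 CPM in CB mice, 120 to 146 with anti-PD-L1, 154 to 206 with anti-Lag3 and 158 to 306 in isotype mice. Between CB and isotype all 3 erythroid markers were below 0 by log2 fold change, and 1 was called lower, beside the same 1.96% of all genes. The 4 NK cell markers summed to 4.71 to 7.65 CPM in CB mice and 2.01 to 3.48 in isotype mice, from only 38 to 146 reads per library. Of these 4, 3 were above 0 by log2 fold change, Prf1 with means of 3.12 CPM in CB and 1.05 in isotype. Ncr1 went the other way (0.609 against 0.871). The sums of the B cell markers named above, of the myeloid and dendritic and of the platelet markers overlapped between CB and isotype. Singly, 1 of the 8 myeloid and dendritic markers was higher in all CB mice and 1 was lower. Lyz2 had 3.23 to 4.09 CPM in CB and 0.106 to 2.37 in isotype mice, and Itgam had 0.0962 to 2.49 and 2.53 to 4.55. The 8 myeloid and dendritic markers summed to 13.6 to 22.9 CPM with anti-PD-L1, above every mouse of the isotype (7.25 to 12.8), anti-Lag3 (7.03 to 11.9) and CB groups (5.76 to 11.9). Among them Lyz2 had a mean of 1.56 CPM in isotype mice and 7.88 with anti-PD-L1, while 5 of the 8 were lower with anti-PD-L1 than in isotype. The part of these cells in the members' differences was not tested.

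In the other comparisons Tap2 did not pass the test. Its log2 fold change was -0.37 for anti-PD-L1 against isotype (SE 0.17, adjusted p = 0.593), -0.18 for anti-Lag3 against isotype (adjusted p = 0.979), -0.40 for CB against anti-Lag3 (adjusted p = 0.432) and -0.22 for CB against anti-PD-L1 (adjusted p = 0.737). The interaction, which asks whether CB differed from the sum of the single antibodies, was -0.03 for Tap2 (SE 0.24, adjusted p = 1.00, edgeR). Antisense genes that overlap exons of Tap2 held 0 and 20 reads, against 25577 for Tap2.

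**Figure D2:**
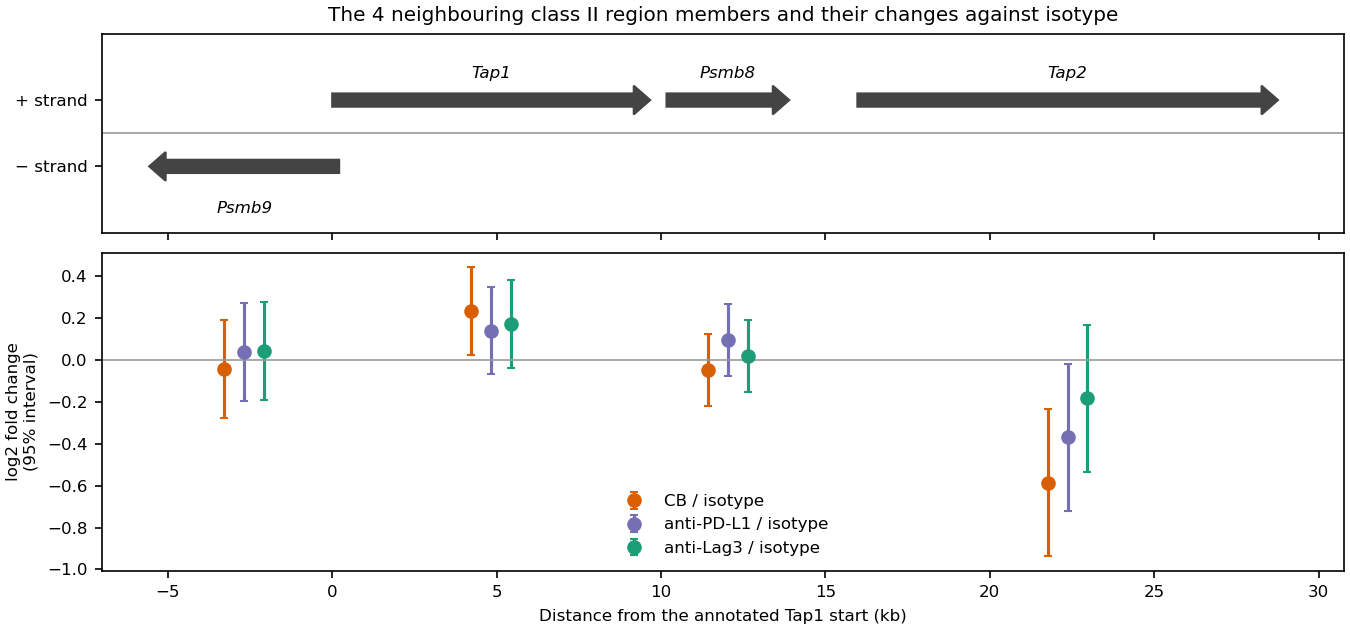
Top, the 4 neighbouring members drawn to scale by strand, with distance from the annotated Tap1 start in kb. Bottom, the log2 fold change of each against isotype with its 95% interval. The point of Tap2 lies below 0 in all 3 comparisons and that of Tap1 above it, at -0.59 and 0.24 for CB. The interval crosses 0 for Tap2 with anti-Lag3 and for Tap1 with anti-Lag3 and with anti-PD-L1.

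Tapbp, which holds class I close to the transporter, had 279, 315 and 259 CPM in isotype mice, 317, 283 and 268 with anti-Lag3, 308, 360 and 240 with anti-PD-L1, and 309, 212 and 269 with CB. All groups overlapped, and CB differed from isotype by -0.11 on the log2 scale (SE 0.13, adjusted p = 0.808). Exons of Tapbp and Zbtb22 overlap by 149 bases on the same strand, where a read cannot be told apart.

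B2m, the light chain, had the smallest standard error of the members. It had 3064, 3086 and 3128 CPM in isotype mice, 3000, 3072 and 3137 with anti-Lag3, 3033, 3491 and 3309 with anti-PD-L1, and 2960, 2831 and 3010 with CB. The CB mice lay below all isotype and all anti-PD-L1 mice. The log2 fold change was -0.08 against isotype (SE 0.06, 95% interval -0.20 to 0.05, adjusted p = 0.610) and -0.16 against anti-PD-L1 (SE 0.06, adjusted p = 0.371), so neither passed.

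Nlrc5, the transactivator, had the largest standard error. It had 38.5, 35.0 and 26.8 CPM in isotype mice, 33.2, 44.4 and 27.0 with anti-Lag3, 42.4, 28.9 and 33.0 with anti-PD-L1, and 28.1, 38.3 and 29.3 with CB. Every group overlapped with every other, and the 95% interval of its log2 fold change between CB and isotype, -0.54 to 0.40, spans changes from 31.0% lower to 31.9% higher.

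**Figure D3:**
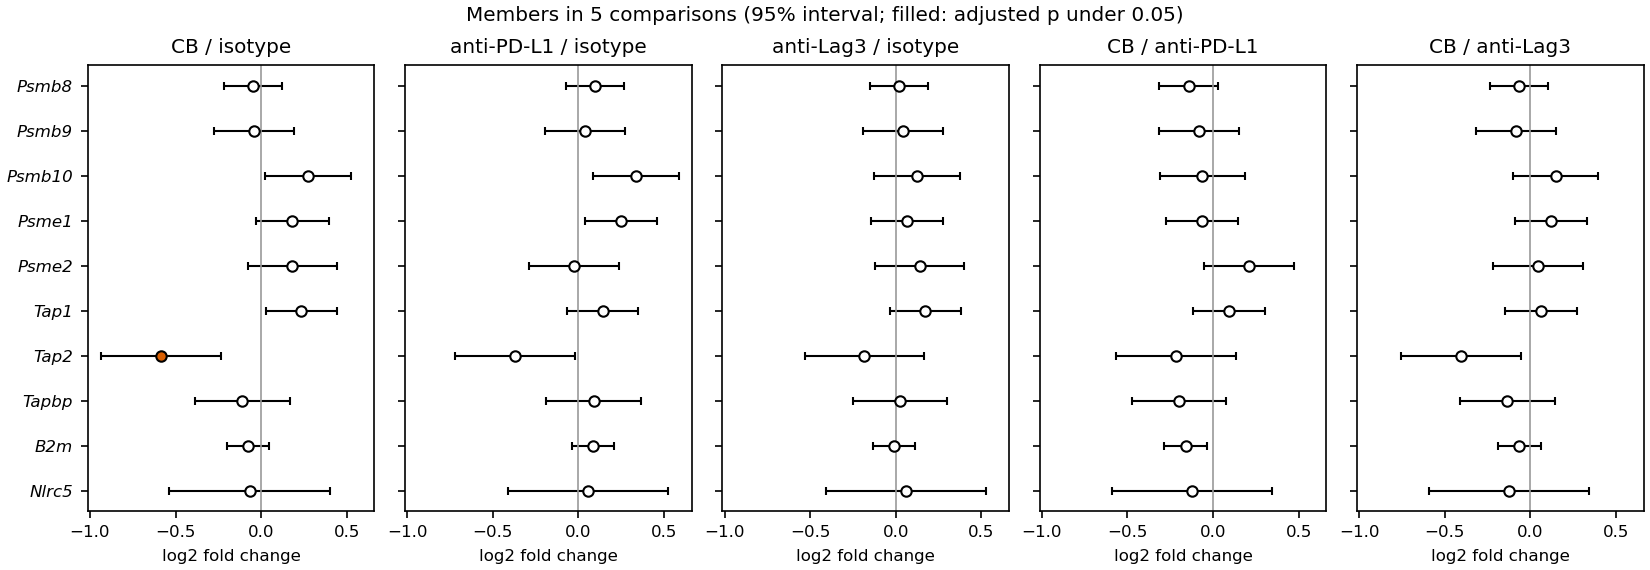
log2 fold change of each member with its 95% interval in 5 comparisons, with filled points where the adjusted p was under 0.05. The filled point is Tap2 in CB against isotype, at -0.59; the first 3 panels share the isotype mice and panels with CB share the CB mice.

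As a group, 4 members had a log2 fold change above 0 and 6 below 0 between CB and isotype, with a median of -0.04 beside 0 over all 15138 genes. The 1 member called stands beside 4.29% of all genes called in this comparison (1.96% lower). The samples of CB and isotype did not overlap for 2 members that were higher, Psmb10 and Tap1, and for 2 that were lower, Tap2 and B2m, beside 10.4% and 9.62% of all genes. Leaving aside Tap2 and Nlrc5, the 95% intervals of the 8 others ran from -0.39 to 0.52 at the extremes.

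The other comparisons called no member. In anti-PD-L1 against isotype the mice did not overlap for 3 members that were higher (Psmb10, Psme1 and Tap1, beside 5.34% of all genes) and 1 that was lower (Tap2, beside 6.46%). In anti-Lag3 against isotype this held for Tap1, which was higher (beside 5.25% of all genes), and for 0 members that were lower (4.81%). CB lay below anti-PD-L1 without overlap for 2 members, Psmb8 and B2m (beside 5.75% of all genes), and above it for 0 (6.94%). The sum of the 8 myeloid and dendritic markers, too, was higher in all anti-PD-L1 mice than in any isotype or CB mouse. Singly, 3 of the 8 had a log2 fold change above 0 in anti-PD-L1 against isotype and 5 below 0. In CB against anti-PD-L1, 1 was above 0 and 7 were below. The part of these cells in the members' differences was not tested. CB and anti-Lag3 overlapped for all 10, beside 7.68% of all genes apart and higher and 7.09% apart and lower. The share of all genes called was 0.37% for CB against anti-PD-L1, 0.694% for CB against anti-Lag3 and 0.033% for anti-PD-L1 against isotype. In anti-Lag3 against isotype and in the interaction edgeR called 0 genes, with 788 and 898 genes at an unadjusted p under 0.05, of which 0 were members. At the same unadjusted cut-off CB against isotype had 3 members, beside 2256 of all 15138 genes, and anti-PD-L1 against isotype had 3, beside 1187. CB against anti-PD-L1 and CB against anti-Lag3 had 1 member each, beside 1374 and 1432 genes. The members' median log2 fold change was 0.09 for anti-PD-L1 and 0.05 for anti-Lag3 against isotype, -0.10 for CB against anti-PD-L1, -0.07 for CB against anti-Lag3 and -0.14 for the interaction, beside 0 over all genes. The 3 comparisons with isotype share its mice, as do those with CB.

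Pairs of members, or a member and its constitutive counterpart, were also set against each other within each library, where scaling cancels. The log2 ratio of Tap1 to Tap2 reads was 0.64 to 0.92 in isotype mice (mean 0.75 ± 0.15, SD, n = 3), 0.81 to 1.52 with anti-Lag3, 1.14 to 1.48 with anti-PD-L1 and 1.10 to 2.20 with CB (mean 1.59 ± 0.56). CB and isotype did not overlap, and the exact permutation test gave p = 0.1, the smallest that 3 against 3 allows (adjusted p = 0.25 over 5 ratios). This ratio was chosen with the levels of both genes known.

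The log2 ratio of Psmb8 to Psmb5 was 3.66 to 3.76 in isotype mice and 3.36 to 3.58 in CB mice (exact permutation p = 0.1, adjusted p = 0.25). Anti-Lag3 mice lay at 3.65 to 3.77 and anti-PD-L1 mice at 3.32 to 4.09, so the latter overlapped with all groups. Psmb5 itself had 42.8, 50.2 and 47.1 CPM in isotype mice and 52.3, 58.5 and 55.2 in CB mice (log2 fold change 0.25, SE 0.18, adjusted p = 0.561). The ratios of Psmb9 to Psmb6, Psmb10 to Psmb7 and Psme1 to Psme2 overlapped between CB and isotype, with mean differences of -0.24, -0.12 and 0.00 on the log2 scale.

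**Figure D4:**
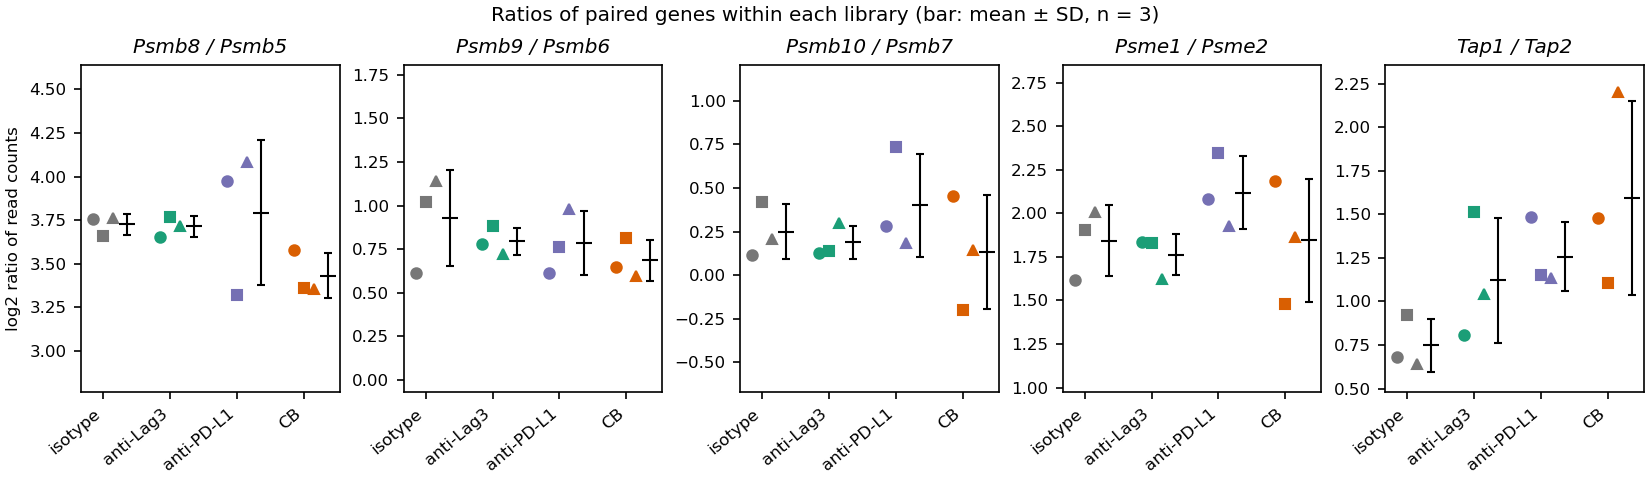
log2 ratio of read counts of paired genes within each library, by treatment, with each axis spanning the same number of log2 units but not starting at 0; points are mice and bars the mean ± SD of 3. CB and isotype mice are apart for Tap1 to Tap2 (1.10 to 2.20 against 0.64 to 0.92) and for Psmb8 to Psmb5 (3.36 to 3.58 against 3.66 to 3.76).

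Other proteins of the loading pathway were read from a list of 5 genes. Between CB and isotype 3 passed the test, all higher, beside 2.33% of all genes called higher, and the median log2 fold change of the 5 was 0.41 beside 0 over all genes. Calr encodes calreticulin, a chaperone of the loading complex; it had 516, 625 and 593 CPM in isotype mice and 823, 707 and 777 in CB mice, a log2 fold change of 0.41 (SE 0.09, adjusted p = 0.00435). Erap1 encodes the aminopeptidase that trims peptides in the endoplasmic reticulum; it had 35.6, 44.8 and 38.2 CPM in isotype mice and 61.4, 61.6 and 58.3 in CB mice, a log2 fold change of 0.61 (SE 0.16, adjusted p = 0.0224). Tapbpl encodes TAPBPR, a tapasin relative that edits peptides on class I; it had 41.0, 58.6 and 61.5 CPM in isotype mice and 78.6, 109 and 93.7 in CB mice, a log2 fold change of 0.80 (SE 0.17, adjusted p = 0.00439).

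All CB mice lay above all isotype mice for these 3 genes. Calr had 730, 746 and 725 CPM with anti-PD-L1, above all isotype mice (log2 fold change 0.34, adjusted p = 0.225), and 626, 589 and 632 CPM with anti-Lag3, where it overlapped with them (0.09, adjusted p = 0.985). Tapbpl lay above all isotype mice with anti-PD-L1, at 78.4, 93.8 and 83.1 CPM (0.66, adjusted p = 0.239), and with anti-Lag3, at 61.7, 65.0 and 84.8 CPM (0.39, adjusted p = 0.805). Erap1 was also above all isotype mice with anti-Lag3, at 64.0, 51.5 and 58.3 CPM (log2 fold change 0.55, adjusted p = 0.805), and with anti-PD-L1, at 54.2, 52.3 and 58.6 CPM (0.48, adjusted p = 0.442). The call for Erap1 between CB and isotype was lost on leaving out any CB mouse, isotype 1 or isotype 3 (adjusted p up to 0.117), and DESeq2 tested against 0.2 called none of the 3 genes (adjusted p from 0.0877 to 0.320). Exons of Erap1 and of Cast, on the opposite strand, overlap by 834 bases, and whether counting used strand is not given in the sources used here. The 2 remaining genes of the list, the chaperone Canx (log2 fold change 0.24, adjusted p = 0.240) and the disulfide isomerase Pdia3 (0.22, adjusted p = 0.231), did not pass.

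Constitutive proteasome subunits and partners did not pass the test. Of 8 genes listed, 7 were tested and Psmb11, the thymic subunit, was not. All 7 had a log2 fold change above 0, with a median of 0.23, and in 6 all CB mice were above all isotype mice, beside 10.4% of all genes. The highest value was that of Psmb7 (0.40, SE 0.13, adjusted p = 0.0953) and the lowest that of Psmf1, a proteasome inhibitor (0.08, adjusted p = 0.929).

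Class I heavy chains did not pass the test either. Of 15 genes listed, 12 were tested and 0 were called by edgeR, with 0 at an unadjusted p under 0.05. H2-K1 (log2 fold change -0.10, SE 0.08) and H2-D1 (-0.07, SE 0.07), the classical heavy chains, were named after their values were seen. The lowest value was that of H2-T10 at -0.59 (SE 0.33, adjusted p = 0.403), whose exons overlap an antisense gene by 925 bases. The highest was that of H2-Q10, for which no fold is given since it held 0 reads in every isotype mouse and 10, 17 and 0 reads in the CB mice. Heavy chain genes are near copies of each other. The paper used counts of uniquely mapped reads, so reads that match several of these genes may go uncounted. The paper names I-Au as the class II molecule that binds the peptide. Whether the MHC region of these mice matches the reference used for mapping and for the printed sequences was not tested. This limit also bears on the 5 members on chromosome 17.

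Of 22 interferon receptor and upstream regulator genes, 2 passed the test, both lower in CB than in isotype mice, beside 1.96% of all genes. Nfkb1, the p50 subunit of NF-kB, had 90.4, 97.4 and 107 CPM in isotype mice and 48.0, 60.3 and 51.2 in CB mice, a log2 fold change of -0.89 (SE 0.17, adjusted p = 0.00203). It lay at 92.1, 67.0 and 80.2 CPM with anti-Lag3 and 55.2, 50.5 and 81.1 CPM with anti-PD-L1, where it did not pass the test (adjusted p = 0.805 and 0.258). Ifnar1, a chain of the type I interferon receptor, had 34.7, 31.9 and 33.6 CPM in isotype mice and 17.1, 20.8 and 16.5 in CB mice, a log2 fold change of -0.88 (SE 0.24, adjusted p = 0.0332). The call for Ifnar1 was lost on leaving out any isotype mouse, CB 1 or CB 3 (adjusted p up to 0.149) and in DESeq2 tested against 0.2 (adjusted p = 0.231). The median of the 22 was -0.01, with 11 above 0 and 11 below.

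Class II genes, which antigen-presenting cells express, were low in all libraries. Cd74, the invariant chain, had 7.20, 13.2 and 15.7 CPM in isotype mice and 3.98, 8.13 and 13.9 in CB mice. Of 7 genes tested, edgeR called 0, with 0 at an unadjusted p under 0.05, and the median log2 fold change was -0.47 with 6 below 0. H2-DMb1, lowest by log2 fold change, held 42, 41 and 61 reads in isotype mice and 8, 0 and 2 in CB mice. Ciita, the class II transactivator and the highest, held 0, 11 and 0 reads in isotype mice and 0, 1 and 39 in CB mice.

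**Figure D5:**
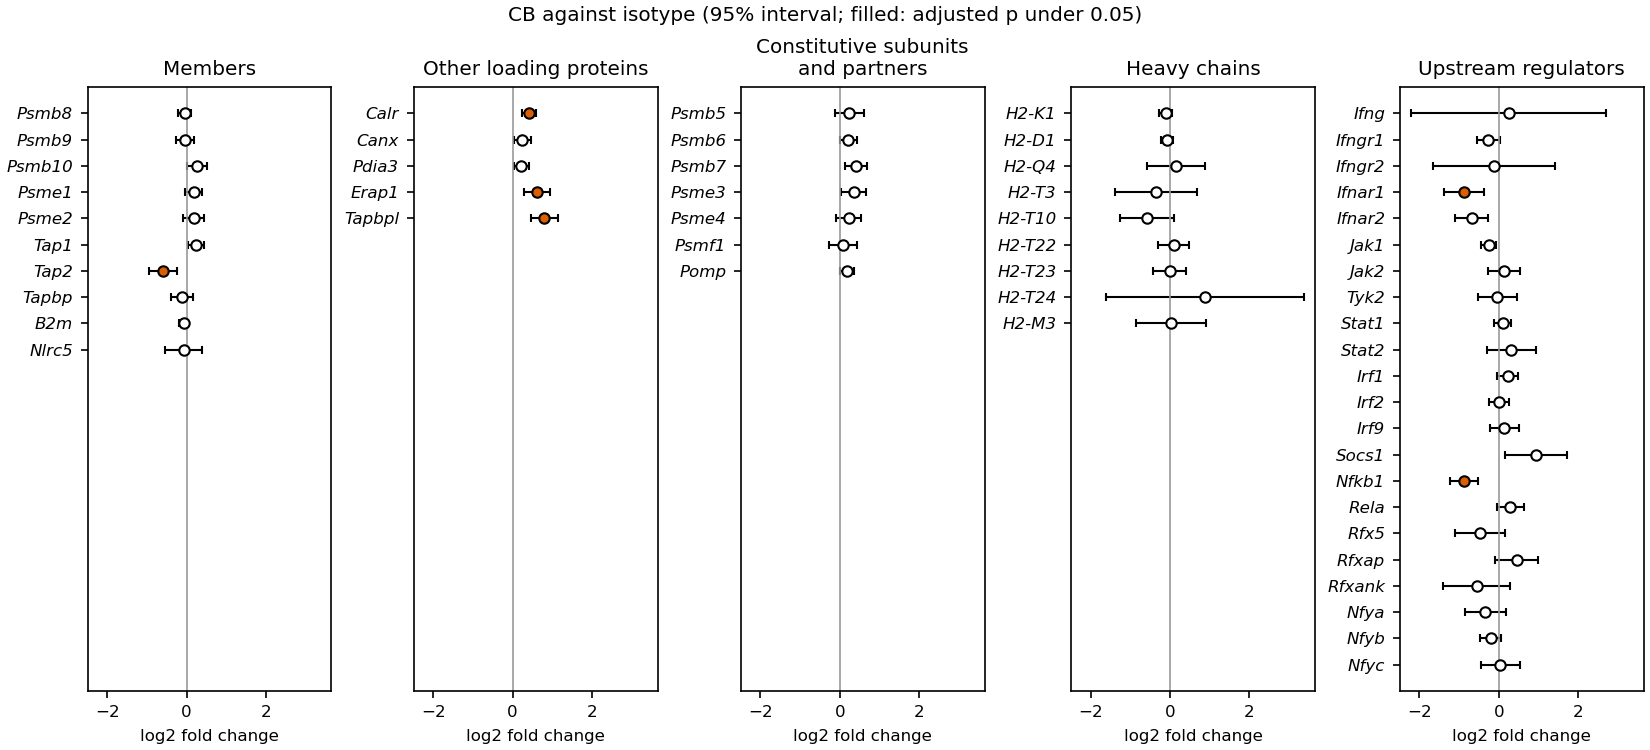
log2 fold change between CB and isotype with its 95% interval for the 10 members and 4 lists of related genes, leaving out genes whose mean count was below 30; filled points have an adjusted p under 0.05. Calr, Erap1 and Tapbpl are filled above 0, and Tap2, Ifnar1 and Nfkb1 below it.

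Among the genes whose pattern was most like the mean of the 10 members, by Pearson correlation of log2 CPM over 12 samples among 10438 genes, were Acbd4 (r = 0.86), Sec61b, a subunit of the translocon of the endoplasmic reticulum (0.84), Btbd6 (0.84) and Glt8d1 (0.83). All 12 points share their libraries with the members, and the values describe these samples. Between pairs of members r ran from -0.78 (Tap1 with Tap2) to 0.55 (Psmb8 with Psmb9), so the mean does not describe a pattern that all members share.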

How the data were processed

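Cells were sorted in multiplexed batches of 4, with a different CD4 antibody label for each treatment. Effects of treatment and of label therefore cannot be told apart. From the sorted cells 3' mRNA libraries (QuantSeq) were sequenced. Per the submitters' processing notes, the authors trimmed reads with cutadapt 1.18, mapped them with STAR 2.6.1a to GRCm38 and counted them on genes with featureCounts 1.6.4. The deposited counts are raw and whole. The deposited rlog values, which are log2 values made by DESeq2, served only for an alternative. No column of either table was left unused (0).

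Genes with at least 30 reads in all were tested with edgeR 4.0.16 (R 4.3.3; TMM, quasi-likelihood, 1 fit to all 4 groups of 3 mice, Benjamini-Hochberg adjustment over all genes); "called" means an adjusted p under 0.05. Log2 fold changes carry a prior count of 0.125. Alternatives used DESeq2 1.42.0, limma 3.58.1 and other filters, scalings and samples. Mice are the replicates, and no sample was a duplicate of another.

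In simulated data for CB against isotype, edgeR recovered 89.3% of genes changed by 4-fold and 57.4% of those changed by 2-fold at a mean count of at least 100. Over all counts it recovered 90 of 200 changed genes and made 10 false calls. For the interaction it recovered 80.4% and 32.4% at a mean count of at least 100. No member changed by as much as 2-fold, and smaller changes were not simulated. Members and lists were chosen with earlier results of these data known. Named genes are the members, every called gene of a related list or, with none or 1 called, its highest and lowest, and the 5 genes most like the members; Psmb5, Cd74, Canx, Pdia3, H2-K1 and H2-D1 were added after their values were seen. Some genes of these lists are not reported here. Gene positions come from GENCODE M21.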

Additional observations from a re-analysis of the deposited data

How the results depend on the processing

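The number of members called between CB and isotype, 1 (Tap2), fell to 0 in DESeq2 tested against a log2 fold change of 0.2 and in the fit of only the groups compared, and ranged from 0 to 1 with a mouse left out. It was 0 without isotype 1, isotype 3, anti-Lag3 3, anti-PD-L1 2, CB 1 or CB 3, and fewer samples enter those fits. Tap2 stayed below 0 in all of them, from -0.77 to -0.39 with a mouse left out. The count in the other comparisons was 0 under every alternative run. Over 60 values of members, 43 of 1250 alternative values changed sign. Between CB and isotype 5 did, all of uncalled members with a mouse left out, where the log2 fold change ranged from -0.17 to 0.047 for Psmb9, from -0.24 to 0.025 for Tapbp and from -0.22 to 0.043 for Nlrc5. Leaving out a mouse also changed the sign of Psmf1 (-0.019 to 0.16), of Tap1 between CB and anti-Lag3 (-0.018 to 0.13) and of the interaction of Tap2 (-0.21 to 0.16), none of them called. Of the related genes, Erap1 lost its call without any 1 of the 3 CB mice, isotype 1 or isotype 3, and Ifnar1 without CB 1, CB 3 or any isotype mouse. DESeq2 tested against 0.2 also called neither these nor Calr or Tapbpl. Limiting the promoter windows to the part before the start lowered the members with the interferon-stimulated response element core from 2 to 1. Sorting in batches with a different label for each treatment implies 1 mouse of each treatment per batch. The paper describes PC2 of its principal component analysis as largely an effect of sort batch. The main fit held no term for sort batch. The correlation of deviations between same-numbered mice was over 0.1 in 2 of 18 pairs (r from -0.06 to 0.12). By this cut-off, which was set here, the numbers were not taken to pair the mice. Yet 10 of 12 samples correlated best with their own number, a hint from the data that same-numbered mice belong together. Whether the numbers follow the sort batches is not given in the sources used here. With the replicate number as a block, the count of members called was 1 (Tap2, adjusted p 0.0153), and 843 genes were called in all. Over all genes, 649 were called between CB and isotype, against 233 in DESeq2 tested against 0.2, 918 in DESeq2 tested against 0 and 394 to 705 with a mouse left out. Precision was lowest for Nlrc5, and sort batch cannot be tied to samples from the sources used here.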
